A study of Mus musculus with 8 samples.

Results

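The genes described here are the arginases and the genes commonly read as markers of alternative macrophage activation, followed through single-cell RNA-seq of leukocytes from the mouse brain, pia and dura before and after experimental stroke. The 9 members, out of 30406 genes that the files of all libraries share, were Arg1, Arg2, Nos2, Retnla, Chil3, Ear2, Il4ra, Mgl2 and Clec10a, and they were chosen by name. The unique molecular identifiers (UMIs) of each gene were summed per library and per cluster of the deposited cell annotation and are given as CPM, the counts scaled to the UMI total of that sum. There were 8 libraries, made from male adult C57BL/6 mice of which the control mice had no stroke and the others had transient middle cerebral artery occlusion (MCAO). They comprise brain parenchyma from control mice, brain at 24 h (2 libraries, replicates 1 and 2), brain at 72 h, and pia and dura each from control mice and at 24 h. Cells were sorted as CD45+ leukocytes that an antibody injected intravenously had not stained. Control mice are called both naive and sham-operated in the sources, mice were pooled with a total given per compartment, and the number of mice in each library is not given in the sources used here. The control pia library is treated as pia from its other labels, although its title says brain. Each library counts as 1 replicate.

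Arginase-1 and arginase-2 split arginine into ornithine and urea, while the inducible nitric oxide synthase Nos2 turns the same substrate into nitric oxide. Interleukin-4 and interleukin-13 act on macrophages through receptors that contain Il4ra and activate the transcription factor STAT6. In mouse macrophages this raises Arg1, Retnla (a secreted cysteine-rich protein also called FIZZ1), Chil3 (a secreted chitinase-like lectin also called Ym1) and the C-type lectin receptors Mgl2 and Clec10a, and cells with high Arg1 and without Nos2 are often called alternatively activated. Several of these genes are also expressed outside that state: Chil3 in neutrophils and their precursors, Arg1 in type 2 innate lymphoid cells (ILC2), and Mgl2 and Clec10a in dendritic cells. Ear2, a ribonuclease of the eosinophil-associated family, completes the list.

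All members are protein-coding genes, located on GRCm38 with GENCODE M21. Arg1 lies at chr10:24915221-24927484 on the minus strand and Arg2 at chr12:79130777-79156301 on the plus strand. Nos2 (chr11:78920787-78960254), Mgl2 (chr11:70130329-70137550) and Clec10a (chr11:70156197-70170834) share chromosome 11, where the last 2 are neighbours in the same orientation. Retnla lies at chr16:48842551-48844461, Ear2 at chr14:44102654-44103534 and Il4ra at chr7:125552120-125579474, all on the plus strand, and Chil3 at chr3:106147554-106167564 on the minus strand. Reads from near-identical copies could blur 3 members. Of the 411 windows of 90 bases in the last 500 bases of the transcript, where such libraries are read, 9.0% of those of Chil3 also occurred in Chil4, 9.73% of those of Ear2 in other Ear genes, and 12.7% of those of Clec10a in Mgl2. No window of the other 6 members occurred in another gene.

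Promoter sequences from the RefSeq table (GRCm38.p6) covered 5 members, Chil3, Ear2, Il4ra, Mgl2 and Retnla. Arg1, Arg2, Nos2 and Clec10a were not matched. The sequences of the 3 members that encode secreted proteins are shown. Capitals mark matches to a STAT6-type motif (TTC and GAA with any 4 bases between them) or a C/EBP-type motif (TTGCNNAA), searched on both strands, and each sequence ends before the first annotated transcript start.
Retnla (chr16:48842359-48842550, + strand): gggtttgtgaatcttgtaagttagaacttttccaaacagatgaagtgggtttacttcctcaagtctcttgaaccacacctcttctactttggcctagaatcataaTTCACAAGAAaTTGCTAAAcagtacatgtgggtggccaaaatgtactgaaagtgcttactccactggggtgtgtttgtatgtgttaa
Ear2 (chr14:44102404-44102653, + strand): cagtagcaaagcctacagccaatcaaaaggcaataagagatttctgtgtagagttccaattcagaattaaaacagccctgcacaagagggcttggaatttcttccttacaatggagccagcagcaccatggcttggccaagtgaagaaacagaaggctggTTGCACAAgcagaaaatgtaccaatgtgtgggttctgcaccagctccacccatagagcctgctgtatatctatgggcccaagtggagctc
Chil3 (chr3:106167565-106167814, - strand): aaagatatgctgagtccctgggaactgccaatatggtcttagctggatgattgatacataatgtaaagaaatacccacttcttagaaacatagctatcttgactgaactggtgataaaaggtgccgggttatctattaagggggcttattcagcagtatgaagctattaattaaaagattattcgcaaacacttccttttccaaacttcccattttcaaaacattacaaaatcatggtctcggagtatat
Counted from base 48842609, the start listed for its promoter, Retnla held the STAT6-type motif 145 bases and the C/EBP-type motif 134 bases upstream. This start lies past the end of the printed sequence, so both motifs are nearer to that end. Ear2 held the C/EBP-type motif 90 bases before its start. Neither motif, nor the ACGTG core bound by hypoxia-inducible factors, was found in the windows of Chil3, Il4ra and Mgl2. The windows of Il4ra and Mgl2 held only 99 and 222 bases, against 250 for Chil3, so fewer positions were searched. Across all 32851 promoters of the table, 5.85% held the STAT6-type, 9.56% the C/EBP-type and 16.6% the ACGTG motif, with no overlap between the 2 matches of Retnla. A match describes these letters and is not a measured binding site.

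The annotation assigns 32457 of 36854 barcodes to 21 clusters. CAM_1, CAM_2, Macro_1 and Macro_2, with 9202 cells in all 8 libraries, are called the macrophage clusters. SAMC, the cluster named stroke-associated myeloid cells, held 1044 cells, of which 4 libraries had at least 30 (brain 24 h replicates 1 and 2, brain 72 h and pia 24 h). Granulo_1 (2127 cells) and Granulo_2 (1270 cells) reached 30 cells in 7 and 6 libraries. Libraries held 6591898 to 20754181 UMIs, with a median of 1083 to 2505 UMIs per annotated cell, and pairs of libraries shared at most 0.995% of the smaller one's cell barcodes. Brain 24 h replicate 2 and brain 72 h stand apart, with 13 barcodes in common but at most 2 with any other library (the other 6 share 12 to 43), and with 31053 instead of 32285 listed genes. Brain at 24 h has a library in each set, so values of both are given beside those at 72 h, for which there is 1 library.

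The cluster names were checked against marker lists. SAMC carried Spp1, Lpl, Gpnmb and Fabp5, the list used for it, at 26995 to 108536 CPM in sum. Granulo_2 carried neutrophil genes at a summed 122265 to 307155 CPM. In Granulo_1 that sum was only 88.6 to 3458 CPM, whereas the monocyte genes Ccr2 (233 to 1021 CPM) and Plac8 (388 to 4552 CPM) were present in all 7 libraries, so the data go against a granulocyte name and the cluster is called Granulo_1 throughout. In CAM_1 and CAM_2 of control brain the microglia list reached 21143 and 27786 CPM against 41.9 and 15.3 CPM of border macrophage genes, the reverse of pia and dura. At 72 h all macrophage clusters carried the monocyte list, at 1511 CPM in CAM_1, 1333 in CAM_2, 3550 in Macro_1 and 1571 in Macro_2.

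More Arg1 UMIs came from Granulo_1 than from any macrophage cluster. Control brain held 5 Granulo_1 cells and 1 SAMC cell, too few for a level of these clusters there. Of 5499 Arg1 UMIs in annotated cells, 47.5% were in Granulo_1, 25% in SAMC and 13% in CAM_2. The ranking differed by tissue. In brain 24 h replicate 2, Granulo_1 held 91.3% of the Arg1 UMIs, in pia at 24 h it held 65.8%, and in brain at 72 h SAMC (38.2%), Granulo_1 (33.9%) and CAM_2 (20.4%) shared them. In dura the source was ILC2, with 56 of 66 UMIs (84.8%) in control mice and 98 of 119 (82.4%) at 24 h.

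In Granulo_1, Arg1 was at 443 CPM (95% Poisson interval 372 to 523) in brain 24 h replicate 1, 571 (527 to 619) in replicate 2, 315 (297 to 334) in brain at 72 h and 966 in pia at 24 h. Control pia had 1 UMI (11.1 CPM), control dura had none, which allows up to 19.8 CPM, and dura at 24 h was at 26.3 CPM (10.6 to 54.2). All 4 brain and pia libraries after MCAO thus lay above the dura libraries and control pia, with no overlap. These intervals, and all others given here, cover counting error only. With every cell thinned to 1000 UMIs, Arg1 was found in 14.1%, 12.3% and 11.6% of Granulo_1 cells in the 3 brain libraries and in 23.5% (exact 95% interval 18.7 to 28.7) in pia at 24 h. It was found in 2.00% in dura at 24 h and in 0 of 62 cells in control dura, which allows 4.84%. Before thinning the pia share was 31.0%.

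In SAMC, Arg1 separated the libraries rather than the cluster. It was at 9.74 and 12.3 CPM in brain 24 h replicates 1 and 2, at 554 (524 to 585) in brain at 72 h and at 393 (314 to 485) in pia at 24 h. Both brain libraries at 24 h were therefore far below the other 2. After thinning, 0.702% of 285 cells and 0 of 74 cells held Arg1 in brain at 24 h (the latter allows 4.05%), against 28.0% (24.0 to 32.3) of 475 cells at 72 h and 13% (6.41 to 22.6) in pia at 24 h. At 72 h the share before thinning was 49.9%, in cells with a median of 4606 UMIs. Lymphoid cells other than ILC2, which should lack the gene, held it in 0 to 1.77% after thinning, with 0.800% in the 72 h library, where their median was 1171 UMIs. The SAMC shares in brain at 24 h were thus at the level of that background. SAMC of brain at 72 h also carried the monocyte list at 1074 CPM against 37.9 to 263 CPM in the other 3 libraries, and its part in the Arg1 level was not tested.

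Among macrophage clusters, Arg1 was absent or nearly so in every control library and in dura. Their sum was at 0 in control brain (at most 4.54 CPM), 17.5 and 29.0 in brain at 24 h, 176 (165 to 188) at 72 h, 0 in control pia (at most 0.725 CPM) and 68.5 (60.6 to 77.1) in pia at 24 h. In dura it was at 0.917 CPM in control mice and 1.84 at 24 h. A few cells carried the 24 h brain values: in brain 24 h replicate 1, 22 of 38 UMIs were in 1 cell, without which the level was 7.36 CPM. At 72 h the signal was broader, with 280 CPM in CAM_2, 232 in CAM_1 and 216 in Macro_1 but 22.6 in Macro_2. In that library 10.4% of macrophage cells held Arg1 after thinning (8.88 to 12.1), compared with 1.6% in pia at 24 h and at most 0.452% in the other 6. The pia share did not exceed the 1.77% of lymphoid cells other than ILC2 in the same library, although the level per sum (68.5 CPM) was above theirs (10.2 CPM). ILC2 gave 10.4% in brain at 72 h, 9.80% in pia at 24 h, and 21.2% and 10.6% in control and 24 h dura.

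**Figure D1:**
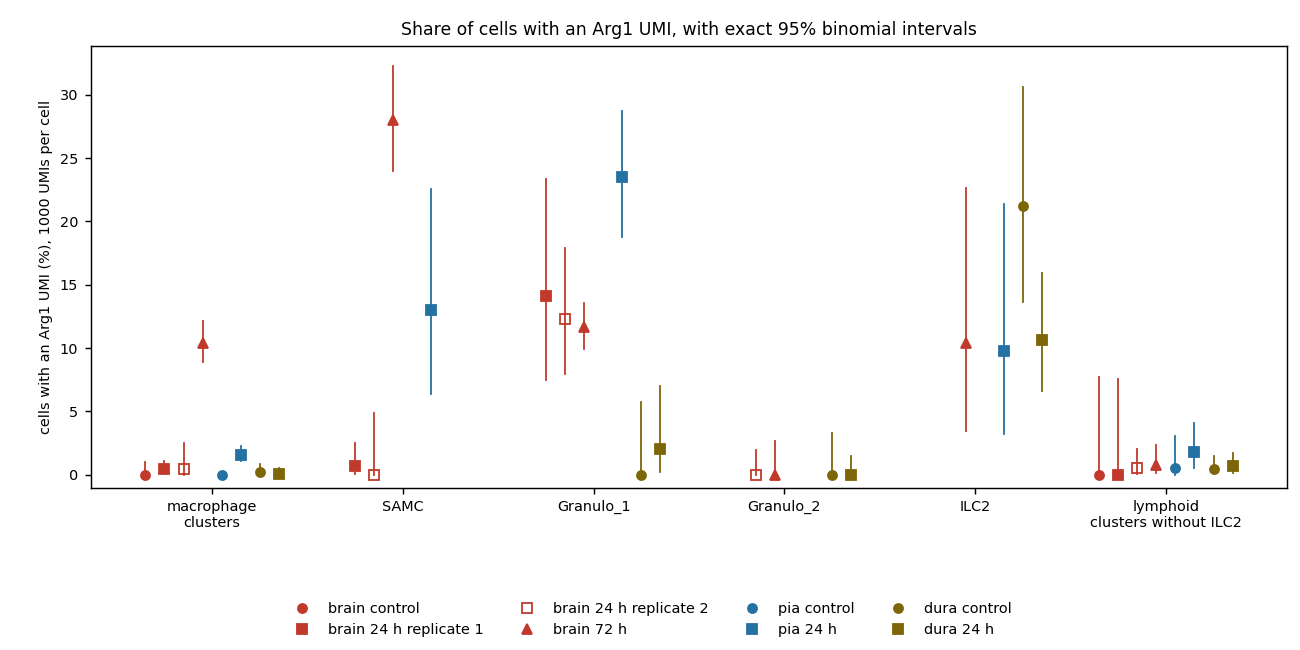
Percent of cells with at least 1 Arg1 UMI after thinning every cell to 1000 UMIs (y axis), by cluster class and library (x axis), with exact 95% intervals as error bars. SAMC of brain at 72 h (28.0%) and Granulo_1 of pia at 24 h (23.5%) are the highest of the macrophage, SAMC and Granulo_1 values, and lymphoid cells other than ILC2 stay at or below 1.77%.

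Arg2, the mitochondrial isoform, had its highest level in Granulo_2. Granulo_1 nevertheless held more of its UMIs, 281 against 232 over the 6 libraries with both clusters. In Granulo_2 it was at 316, 87.8 and 40.8 CPM in brain 24 h replicates 1 and 2 and brain 72 h, at 275 in pia at 24 h, and at 84.1 and 95.1 in control and 24 h dura. It was thus present in all 6 libraries with at least 30 Granulo_2 cells, of which control dura was the only control library. In Granulo_1 it ranged from 0 in control pia to 129 CPM in pia at 24 h (median 39.5 over 7 libraries). The sum over macrophage clusters stayed at 0 to 20.0 CPM, with higher levels in Macro_1 (40.9 CPM) and CAM_2 (30.8 CPM) of brain at 72 h and in CAM_2 of brain 24 h replicate 2 (23.6 CPM). SAMC had none in either brain library at 24 h (at most 3.25 and 12.3 CPM), 39.1 CPM at 72 h and 27.4 in pia at 24 h, the same order of libraries as for Arg1. Nos2 was hardly detected: 6 UMIs in all annotated cells of the 8 libraries, none of them in a macrophage cluster or SAMC and 3 of them in Granulo_2. A Nos2 level in macrophage clusters below 0.606 CPM in brain at 72 h, or below 4.54 CPM in control brain, was not detectable at this depth.

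**Figure D2:**
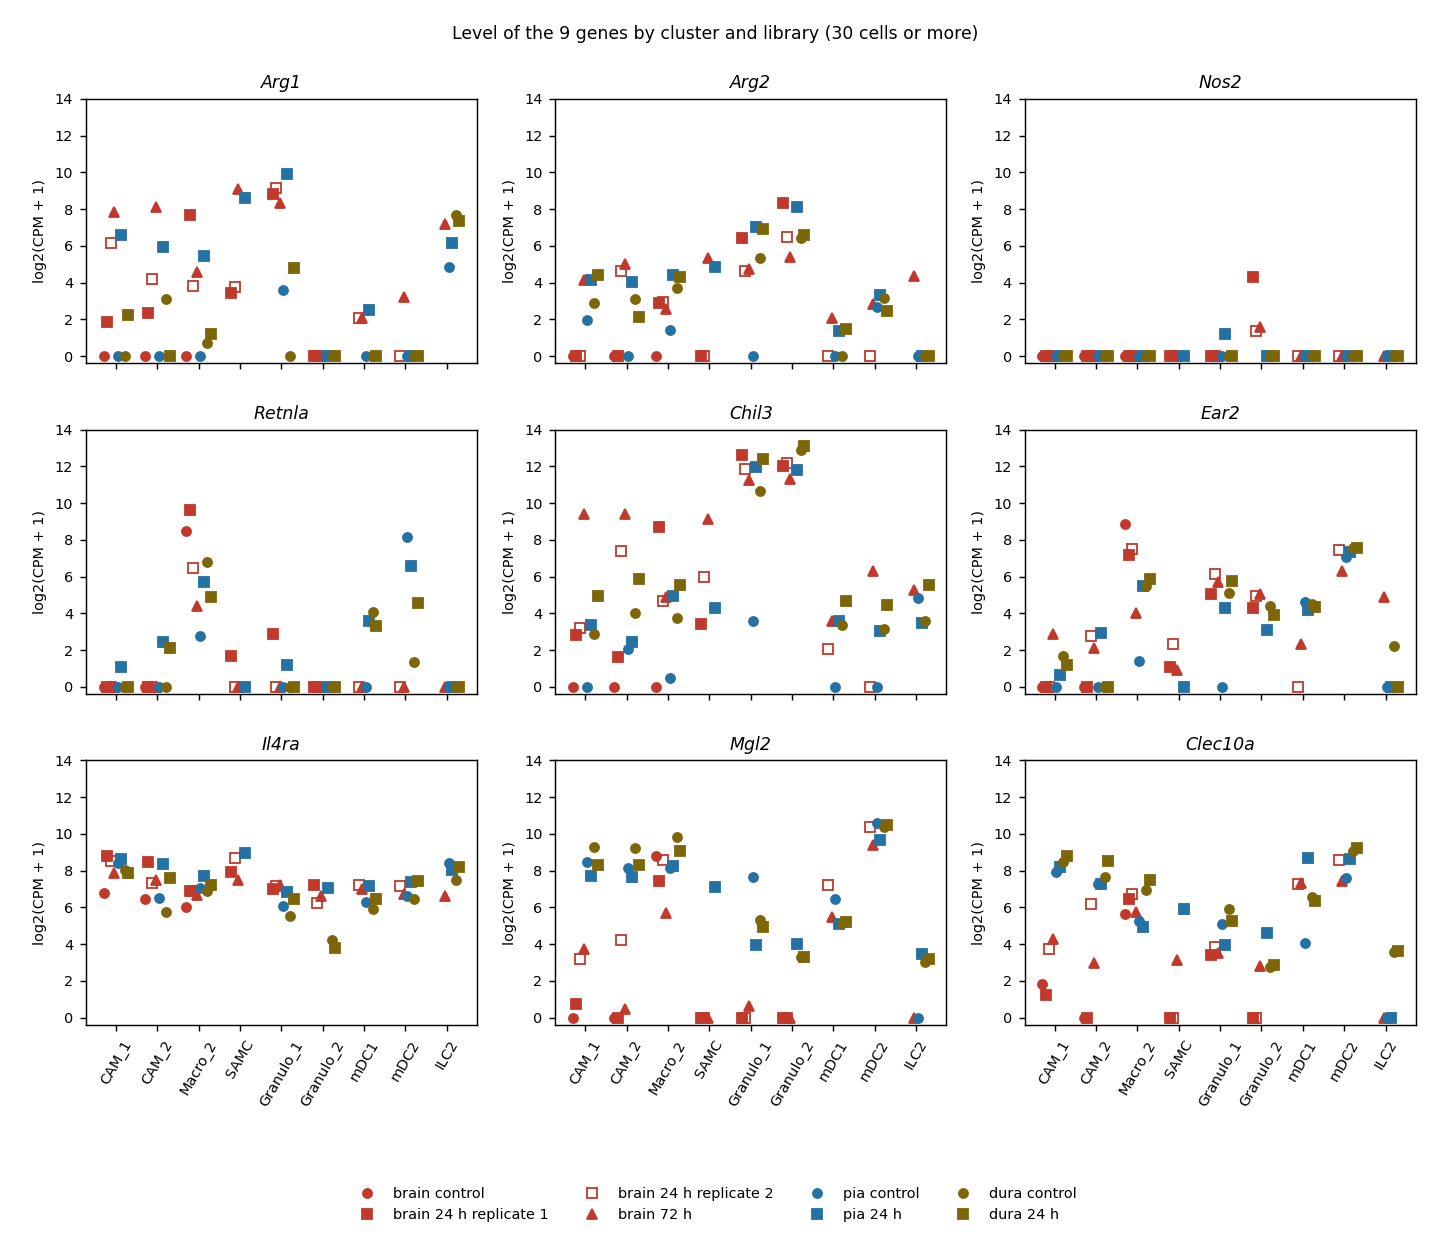
Level of each member on the log2(CPM + 1) scale (y axis) in 9 clusters (x axis), with 1 point per library of at least 30 cells, coloured by tissue and shaped by time. Chil3 is highest in Granulo_1 and Granulo_2, Arg1 is at 0 in all 6 Granulo_2 libraries, and Nos2 is at 0 in the macrophage clusters and SAMC and reaches 18.6 CPM, from 1 UMI, in Granulo_2 of brain 24 h replicate 1.

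Chil3 was mainly a transcript of the 2 Granulo clusters, with 48.7% of its 40194 UMIs in Granulo_1 and 36.4% in Granulo_2. In Granulo_2 it was at 4112, 4676 and 2552 CPM in the brain libraries at 24 h and 72 h, 3610 in pia at 24 h, and 7615 and 8748 in control and 24 h dura. In Granulo_1 it was at 6253, 3747 and 2480 CPM in the 3 brain libraries, 4068 in pia at 24 h, and 1588 and 5356 in control and 24 h dura. The exception was Granulo_1 of control pia, with 1 UMI (11.1 CPM). These 55 cells, with a median of 1003 UMIs, also carried border macrophage genes at a summed 2004 CPM, the highest of the 7 libraries.

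In macrophage clusters Chil3 was at 1.51 CPM in control brain, 34.4 and 69.1 at 24 h and 440 (421 to 458) at 72 h. In pia it was at 0.483 in control mice and 17.4 at 24 h, and in dura at 11.0 and 41.5. Brain at 72 h was above all others. The dura values were near those of lymphoid cells other than ILC2, which should lack the gene and were at 13.1 CPM in control and 30.5 CPM in 24 h dura, whereas in pia these cells were at 2.97 and 3.40 CPM. At 72 h the level was 690 CPM in CAM_1, 671 in CAM_2 and 918 in Macro_1 but 28.5 in Macro_2. The monocyte list, given above, was likewise higher in Macro_1 than in CAM_1 and CAM_2, and was at 1571 CPM in Macro_2. Its part in the Chil3 level was not tested. After thinning, 21.6% (19.5 to 23.8) of macrophage cells held Chil3 at 72 h, against 1.87% of lymphoid cells other than ILC2 in that library. In SAMC, Chil3 was at 9.74 and 61.6 CPM in brain at 24 h, 559 at 72 h and 18.3 in pia at 24 h. Pia SAMC at 24 h, which were high in Arg1, were therefore low in Chil3, and in SAMC at 72 h the genes were found together no more often than apart: Chil3 was in 34.6% of thinned cells with Arg1 and in 34.8% of those without. In the macrophage clusters of the same library Chil3 was in 33.6% of 149 cells with Arg1 and in 20.2% of 1281 cells without. These cells pool Macro_2, low in both genes, with clusters high in both, and the part of this pooling was not tested.

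Retnla came from very few cells. Macro_2 held 68.8% of its 778 UMIs and mDC2, a dendritic cell cluster, 22.5%. In Macro_2 it was at 355 CPM in control brain, 796 and 86.0 in brain at 24 h, 20.4 at 72 h, 5.83 and 50.5 in control and 24 h pia, and 108 and 29.0 in control and 24 h dura. These levels rested on 2 to 12 cells per library. In pia at 24 h, 81 of 85 UMIs were in 1 cell, without which the level was 2.38 CPM, and all 107 UMIs of mDC2 in control pia were in 1 cell. Differences in Retnla between libraries therefore rest on single cells. SAMC held 2 Retnla UMIs and Granulo_1 held 3 over all libraries, and Granulo_2 none.

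Ear2 followed mDC2 and Macro_2. In mDC2 it was at 78.8 to 190 CPM (median 169 over 6 libraries), and in Macro_2 it was at 468 CPM in control brain, 145 and 183 at 24 h, 15.0 at 72 h, 1.66 and 44.0 in control and 24 h pia and 43.3 and 58.1 in control and 24 h dura. The control brain value came from 3 of 35 cells. There 16 of 29 UMIs were in 1 cell, without which the level was 222 CPM. In brain 24 h replicate 1 the value came from 7 of 56 cells. SAMC reached at most 4.11 CPM and Granulo_1 69.6 CPM. Retnla and Ear2 thus shared Macro_2 as the macrophage cluster in which they were highest, and CAM_1 had at most 1.09 and 6.27 CPM of them.

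Il4ra, the receptor chain shared by interleukin-4 and interleukin-13 signalling, was present in every macrophage cluster. The sum over macrophage clusters was at 95.2 CPM in control brain, 400 and 188 at 24 h, 156 at 72 h, 197 and 310 in control and 24 h pia, and 144 and 182 in control and 24 h dura. In this sum each library after MCAO was above the control library of its tissue. CAM_1 of dura, taken alone, was instead lower at 24 h than in control. The microglial clusters of brain and pia were also higher after MCAO. Leaving out the 1 cell with most Il4ra UMIs per library, they were at 77.3 CPM in control brain, 186 and 276 at 24 h and 119 at 72 h. In pia they were at 129 CPM in control mice and 353 at 24 h. The part of the microglia genes in CAM_1 and CAM_2 of control brain was not tested. SAMC had 241, 411, 182 and 498 CPM in brain 24 h replicates 1 and 2, brain 72 h and pia 24 h, the highest cluster median (326 CPM), ahead of CAM_1 (300 CPM, 110 to 448 over 8 libraries), and these ranges overlap. Granulo_1 was lower, at 46.1 to 147 CPM. The receptor level thus did not follow Arg1 across SAMC libraries, where the lowest Il4ra value came with the highest Arg1 value.

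The lectin receptors Mgl2 and Clec10a were highest in mDC2, and in CAM_1 and CAM_2 they separated pia and dura from brain. In mDC2, Mgl2 was at 682 to 1523 CPM and Clec10a at 174 to 599 CPM (6 libraries). In CAM_1, Mgl2 was at 0, 0.666, 8.32 and 12.5 CPM in control brain, brain 24 h replicates 1 and 2 and brain 72 h, whereas it was at 351 and 211 in control and 24 h pia and at 634 and 315 in dura. The brain and border libraries did not overlap, and Clec10a in CAM_1 showed the same split (1.33 to 18.8 CPM in brain, 247 to 441 in pia and dura). CAM_1 of control brain carried the microglia genes described above, and what part of the split this makes was not tested. CAM_2 showed the same split, with Mgl2 at 0 to 599 CPM and Clec10a at 0 to 364 CPM. Each of its brain libraries lay below each of its pia and dura libraries. How many of all genes show such a split was not counted. The microglial clusters also held Mgl2 in the border tissues, with 31 and 29 UMIs in control and 24 h pia and 16 and 28 in dura. Its presence in pia and dura was thus not particular to CAM_1 and CAM_2. Macro_2 did not show the split. There Mgl2 was at 452, 171, 375 and 50.5 CPM in control brain, brain 24 h replicates 1 and 2 and brain 72 h, at 278 and 300 in control and 24 h pia and at 915 and 540 in dura. Clec10a in Macro_2 was at 48.5 to 104 CPM in brain, 37.0 and 29.7 in control and 24 h pia and 121 and 180 in dura. Mgl2 in CAM_1 was lower at 24 h than in the control library in both pia and dura, while Clec10a was higher in both. In mDC1, Clec10a was at 15.7 CPM in control pia and 410 at 24 h but at 94.0 and 79.7 in dura. SAMC had no Mgl2 UMI in the 3 brain libraries and 137 CPM in pia at 24 h, where Clec10a was at 59.4 CPM. These pia cells carried border macrophage genes at a summed 2466 CPM against 9.74 to 481 CPM in brain SAMC, and the part of such genes in the Mgl2 level was not tested.

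**Figure D3:**
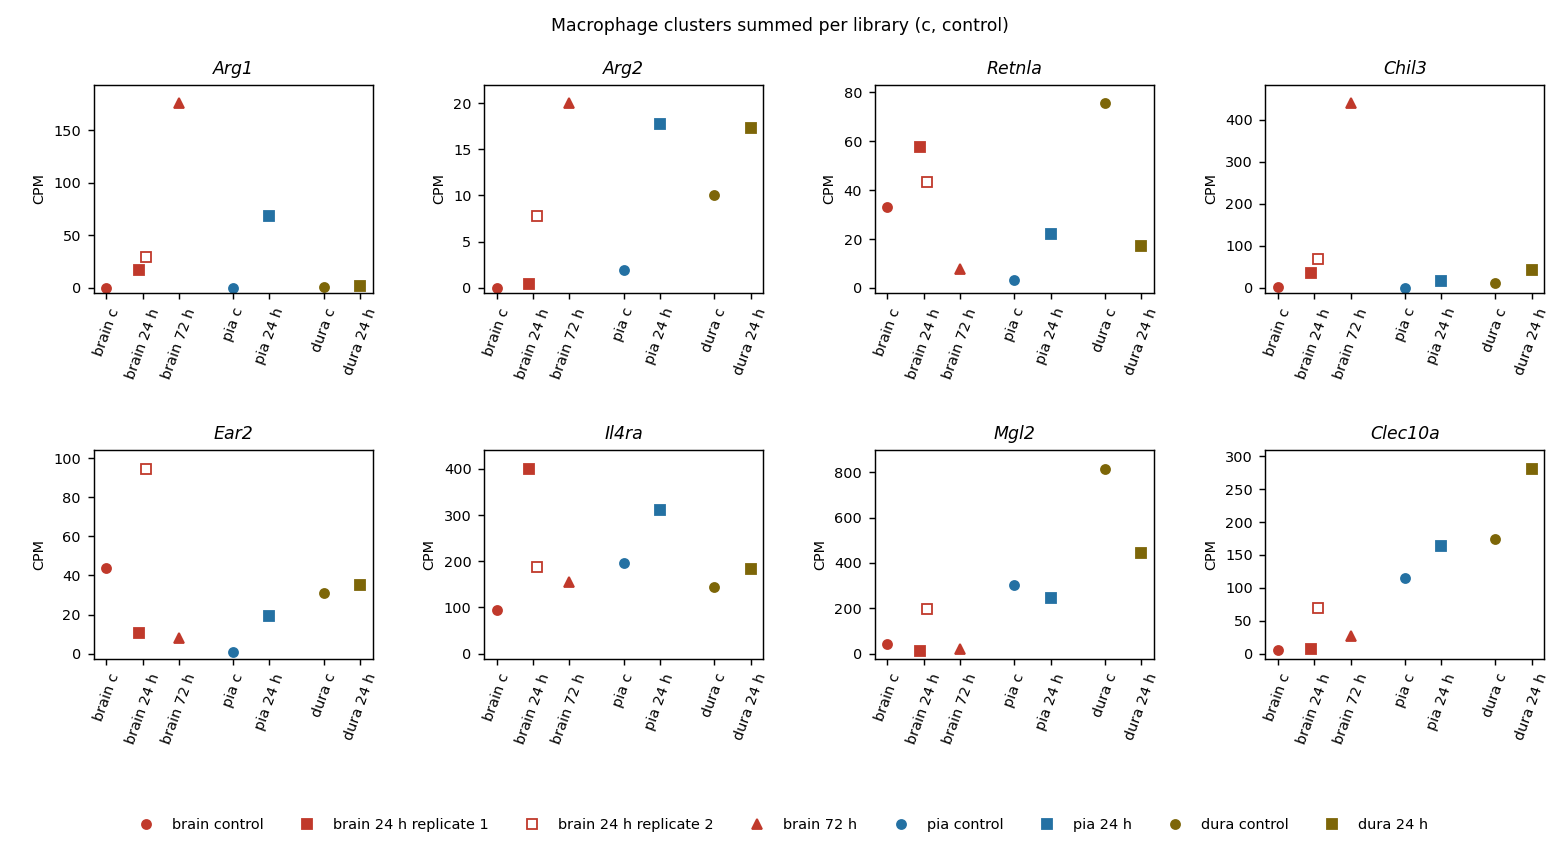
Level of 8 members in CPM (y axis, a scale of its own in each panel) in the summed macrophage clusters of each library (x axis, c for control). Arg1 and Chil3 are highest in brain at 72 h (176 and 440 CPM), and Mgl2 and Clec10a are higher in every pia and dura library than in control brain.

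Sums of the same libraries were compared with edgeR's quasi-likelihood test, and a gene is called here when its Benjamini-Hochberg adjusted p over all tested genes was below 0.05 and its fold at least 2. The clusters had been formed from these same counts, so the tests describe the size of a difference against the spread between libraries and not whether the clusters exist. Retnla, Ear2 and Clec10a were lower in SAMC than in the macrophage clusters of the same 4 libraries. Of 9557 genes tested, 2.34% were called, and 3 of the 8 members that passed the filter on low counts were among them, all lower in SAMC. Retnla differed by a log2 fold change of -5.22 ± 0.54 (SE derived from the F statistic, edgeR adjusted p = 1.0e-06), Ear2 by -3.75 ± 0.50 (adjusted p = 3.19e-05) and Clec10a by -2.13 ± 0.35 (adjusted p = 0.0012). All 3 were lower in 4 of 4 libraries. SAMC held 2 Retnla and 4 Ear2 UMIs, against 292 and 225 in the macrophage clusters. Both genes thus passed the filter on low counts through the macrophage side. The Retnla UMIs of the macrophage clusters were in 2 to 7 cells per library, so its small p rests on few cells. In brain 24 h replicates 1 and 2 and brain 72 h, Macro_2 held all of these Retnla UMIs (126, 39 and 38). In pia at 24 h it held 85 of 89. Of Ear2 in these libraries it held 23 of 23, 83 of 85, 28 of 39 and 74 of 78. Of Clec10a it held 14 of 16, 47 of 62 and 98 of 129 in brain but 50 of 655 in pia. SAMC thus shared low Retnla and Ear2 with CAM_1 and CAM_2, which had at most 4.40 and 6.60 CPM. Mgl2 was also lower in 4 of 4 (-2.79 ± 1.01) but was not called (adjusted p = 0.38). Arg1 was not called either (1.22 ± 0.63, adjusted p = 0.54), higher in SAMC in brain at 72 h and pia at 24 h and lower in both brain libraries at 24 h. Arg2, Chil3 and Il4ra differed by less than 2-fold. None of the 8 was called when the library was not a block or when brain 24 h replicate 2 and brain 72 h were left out, and Clec10a was not called by DESeq2 (adjusted p = 0.19).

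The members split most clearly between Granulo_1 and the macrophage clusters of the same 7 libraries, where 10.5% of 9852 genes and 6 of 8 members were called. Chil3 (6.31 ± 0.86, edgeR adjusted p = 0.0048, higher in 7 of 7 libraries) and Arg1 (3.45 ± 0.69, adjusted p = 0.017, higher in 6 of 7) were higher in Granulo_1. Retnla (-5.15 ± 0.51, adjusted p = 2.21e-06), Mgl2 (-4.11 ± 0.73, adjusted p = 0.012), Clec10a (-2.27 ± 0.34, adjusted p = 0.0011) and Il4ra (-1.14 ± 0.24, adjusted p = 0.0041) were lower, the first 2 and Il4ra in 7 of 7 libraries and Clec10a in 6 of 7. For Retnla, the 518 UMIs of the macrophage clusters were in 2 to 12 cells per library, against 3 UMIs in Granulo_1. Retnla thus passed the filter on low counts through the macrophage side, and its value rests on few cells. Arg2 was higher in 6 of 7 but not called (2.23 ± 0.66, adjusted p = 0.062), and Ear2 differed by less than 2-fold. The Arg1 call was lost without brain 24 h replicate 1 (adjusted p = 0.054), without replicate 2 (0.065) and without pia at 24 h (0.072), with log2 fold changes of 3.00, 3.16 and 3.37. The Il4ra difference fell to -0.82, below 2-fold, when CAM_1 was left out of the macrophage clusters.

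Of the 2 Granulo clusters, only Granulo_1 carried Arg1, while both carried Arg2. Among 6123 genes tested over 6 libraries, 34.5% were called, as were 3 of 7 members. Arg1 was not detected in Granulo_2 in any of the 6 libraries against 2611 UMIs in Granulo_1, which makes it at least 346-fold higher in Granulo_1 when a floor of 3 counts over the group is taken (edgeR adjusted p = 1.53e-16). Arg1 thus passed the filter on low counts through Granulo_1 alone, and this p rests in part on a spread that edgeR estimates across genes. Arg1 was higher in Granulo_1 in 5 of 6 libraries, and control dura had no Arg1 UMI in either cluster. Arg2 was higher in Granulo_2 (1.58 ± 0.26, adjusted p = 2.08e-06) in 5 of 6 libraries, and this was 0.99, just below 2-fold, when sums were scaled by library size alone. Clec10a was lower in Granulo_2 (-1.37 ± 0.54, adjusted p = 0.035), on 13 and 85 UMIs, and was not called by DESeq2 (adjusted p = 0.10). Chil3 differed by less than 2-fold, as did Ear2, Il4ra and Mgl2.

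**Figure D4:**
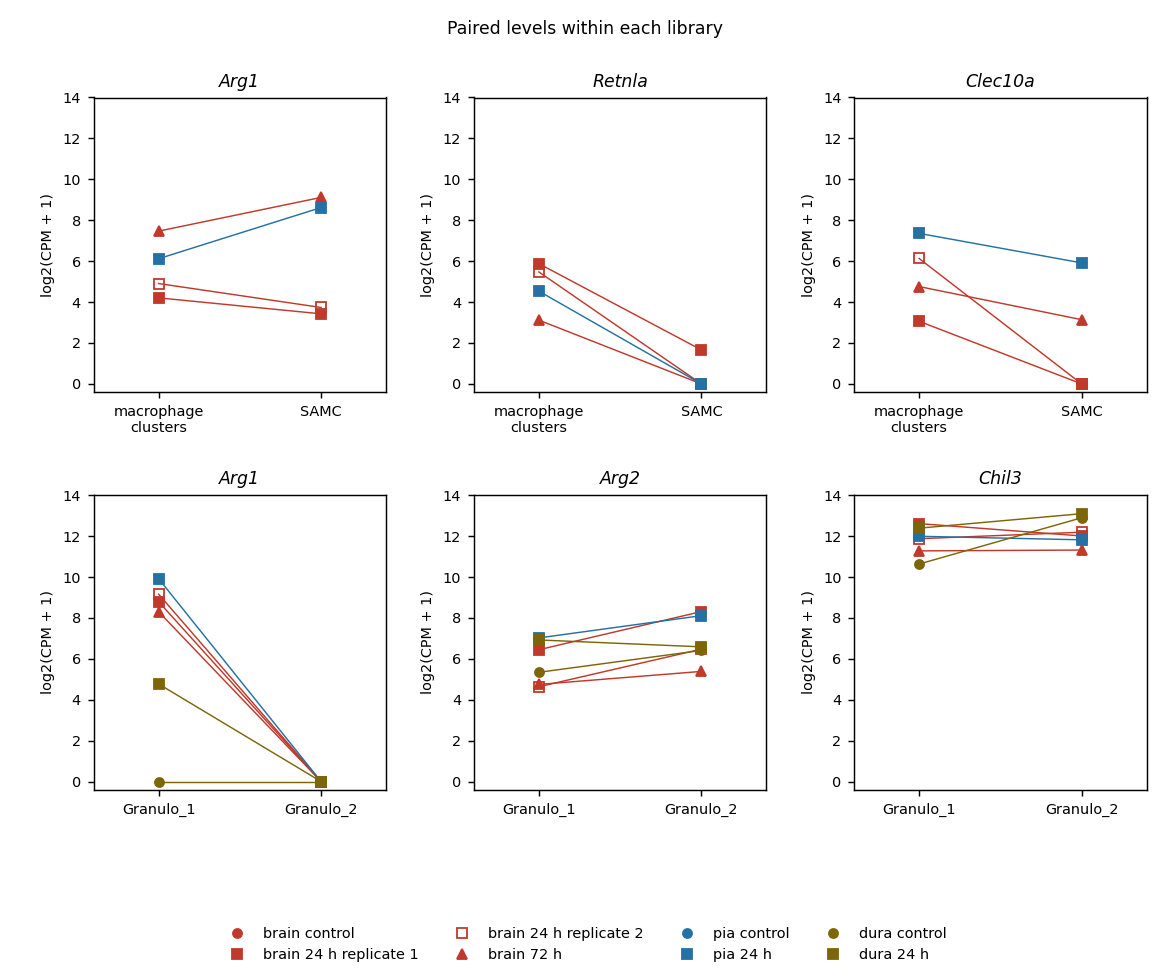
Level on the log2(CPM + 1) scale (y axis) in the macrophage clusters and SAMC for Arg1, Retnla and Clec10a, and in Granulo_1 and Granulo_2 for Arg1, Arg2 and Chil3, with a line joining the sums of each library. Retnla and Clec10a fall from macrophage clusters to SAMC in 4 of 4 libraries, Arg1 falls in 2 and rises in 2, and from Granulo_1 to Granulo_2 Arg1 falls to 0 in 5 of 6 libraries.

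Macrophage clusters at 24 h were compared with control across the 3 tissues. In control brain 221 and 171 of the 440 cells were CAM_1 and CAM_2 cells, whose microglia list stood at 21143 and 27786 CPM. At 24 h that list was at 9790 and 10552 CPM in CAM_1 and CAM_2 of replicate 1 and at 3416 and 2602 CPM in replicate 2, so in brain the markers of this class go against its name and moved with time, and their part in the differences was not tested. With edgeR, 0.00% of 10887 genes and 0 of 8 members were called. At an unadjusted p below 0.05, 2 members were counted (468 genes in all), Arg1 (6.18 ± 1.5, adjusted p = 0.98) and Chil3 (3.42 ± 0.68, adjusted p = 0.98), and DESeq2 called both (adjusted p = 0.0090 for Arg1 and 0.0011 for Chil3) among 18 genes. On the log2(CPM + 1) scale Arg1 was higher by 4.21 and 4.91 in brain, 6.12 in pia and 0.56 in dura, and Chil3 by 3.82 and 4.80, 3.64 and 1.82. The dura differences were at background: Arg1 rested on 2 and 5 UMIs and lay below the 7.49 and 4.65 CPM of lymphoid cells other than ILC2, and Chil3 was near the lymphoid values given above. The count in edgeR depended on 1 library: without brain 24 h replicate 2, Arg1 (6.85, adjusted p = 0.020) and Chil3 (2.89, adjusted p = 0.026) were called among 239 genes. Arg2 (2.00) and Clec10a (1.02) were also higher on average and not called, while Ear2, Il4ra, Mgl2 and Retnla differed by less than 2-fold.

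Macrophage clusters of brain at 72 h were set against 24 h in the same fit, whose term for time is shared by the tissues. The fitted 24 h level thus draws on the pia, dura and control libraries as well as on brain at 24 h. The summed class held different clusters, with 648 CAM_1, 273 CAM_2 and 56 Macro_2 cells in brain 24 h replicate 1, 165, 89 and 93 in replicate 2, and 212, 642 and 570 at 72 h with 73 Macro_1 cells, and the part of this change in the differences was not tested. With edgeR, 0.00% of 10887 genes and 0 of 8 members were called, 3 members (790 genes) had an unadjusted p below 0.05, and DESeq2 called Chil3 alone among the members (3.40, adjusted p = 0.045). The edgeR log2 fold changes were 3.45 for Chil3, 3.16 for Arg1 and 2.93 for Arg2, which were higher at 72 h, and -2.5 for Retnla, -2.79 for Ear2 and -1.79 for Mgl2, with adjusted p between 0.67 and 0.71. Clec10a and Il4ra differed by less than 2-fold. Without brain 24 h replicate 2, the log2 fold changes were 3.40 for Arg1, 5.44 for Arg2, 3.83 for Chil3 and 0.28 for Mgl2. Brain 72 h was then the only library of its barcode set and brain at 24 h had 1 library. Time and barcode set cannot be told apart in that fit. In SAMC, 72 h was compared with 24 h with 1 library against 2, and edgeR called 0.00% of 8467 genes and 0 of 4 members that could be tested. Of these, 3 had an unadjusted p below 0.05 (319 genes in all), namely Arg1 (5.76, adjusted p = 0.11), Arg2 (adjusted p = 0.13, from 0 at 24 h) and Chil3 (4.33, adjusted p = 0.13). DESeq2 called Arg1 (5.74, adjusted p = 0.00021) and Chil3 (4.29, adjusted p = 0.033). With 1 residual degree of freedom and 1 library at 72 h, these values compare 3 libraries and carry no statement on time. Within the set of brain 24 h replicate 2 and brain 72 h, Arg1 was at 12.3 and 554 CPM in SAMC and at 29.0 and 176 CPM in macrophage clusters, and Chil3 at 61.6 and 559 CPM in SAMC and at 69.1 and 440 CPM in macrophage clusters.

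Macrophage clusters of pia and dura, each with a control and a 24 h library, did not differ by test, with 0.00% of 10887 genes and 0 of 8 members called by edgeR and 0 members and 7 genes by DESeq2. Only Chil3 had an unadjusted p below 0.05 (205 genes in all). Log2 fold changes of at least 1 in size were seen for Arg1 (3.70), which was higher in pia, and for Chil3 (-2.49), Ear2 (-2.16), Retnla (-2.10), Mgl2 (-1.21) and Arg2 (-1.08), which were lower there, each with an adjusted p of 1. Arg2 moved to 0.03 without control dura. The Arg1 value turned negative without pia at 24 h (-3.16) and without dura at 24 h (-4.39), since control pia had none.

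Other genes of the same pathways were read from fixed lists. Of 14 genes of arginine and polyamine metabolism, 12 were tested between SAMC and the macrophage clusters and none was called (list median -0.03 against -0.05 over all genes). In Granulo_1, 1 of 14 was higher than in the macrophage clusters, Ass1, which makes the arginine precursor argininosuccinate (1.76 ± 0.45, edgeR adjusted p = 0.032), and 1 was lower, Gatm, which uses arginine for creatine (-1.80 ± 0.47, adjusted p = 0.040). Granulo_2 had less Ass1 than Granulo_1 (-5.86 ± 0.52, adjusted p = 5.65e-13) and less of the spermidine synthase Srm (-2.41 ± 0.50, adjusted p = 8.46e-05), among 12 of 14 genes tested. Both were near the floor in Granulo_2, with medians of 0 and 3.05 CPM and at most 18.6 and 15.3 CPM. Ass1 thus passed the filter on low counts through Granulo_1. Ass1 was called in the same direction as Arg1 in both comparisons, in which 10.5% and 34.5% of all genes tested were called.

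Of 15 genes of interleukin-4 and interleukin-13 reception and signalling, 13 were tested between SAMC and the macrophage clusters, and 2 transcription factors were lower in SAMC, Irf4 (-4.31 ± 0.94, edgeR adjusted p = 0.0063) and Klf4 (-1.15 ± 0.19, adjusted p = 0.00034). Of all genes tested, 2.34% were called. Irf4 was near the floor in SAMC, at 0 to 4.57 CPM with a median of 0. It thus passed the filter on low counts through the macrophage side. Stat6 itself was at 36.5 to 82.2 CPM in SAMC and 35.2 to 93.7 CPM in macrophage clusters, and was not called. Il4 and Il13, the cytokine genes, were at or below 1.47 CPM in macrophage clusters and at 0 in SAMC and Granulo_1. In Granulo_1, 1 of 13 tested genes of the list was lower than in macrophage clusters (Myc, -1.39), and in Granulo_2 against Granulo_1, 1 of 9 was higher (Socs1, 1.09) and 1 lower (Klf4, -3.5). Of all genes, 10.5% and 34.5% were called in these 2 comparisons.

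Among 16 other genes read as alternative activation markers, 9 were tested between SAMC and the macrophage clusters. The growth factor gene Igf1 was higher in SAMC (1.68 ± 0.32, edgeR adjusted p = 0.0063), and the chemokine gene Ccl17 (-3.67 ± 0.60, adjusted p = 0.00037) and the lectin gene Cd209a (-4.93 ± 0.59, adjusted p = 7.29e-06) were lower. Ccl17 and Cd209a were near the floor in SAMC, at most 9.13 CPM with medians of 0.541 and 0. Both thus passed the filter on low counts through the macrophage side. In Granulo_1, 1 of 10 was higher than in macrophage clusters, the transglutaminase Tgm2 (1.71 ± 0.29), and 5 were lower, among them the chemokine genes Ccl17 (-3.44 ± 0.58) and Ccl22 (-3.31 ± 0.74), the mannose receptor Mrc1 (-3.25 ± 0.36) and the haemoglobin scavenger receptor Cd163 (-3.22 ± 0.72). Of these, Ccl17 and Ccl22 were near the floor in Granulo_1, with medians of 0 and at most 9.21 and 1.32 CPM. Cd163 also had a low median there (1.91 CPM), with a range of 0 to 166 CPM. The list median was -1.57 against -0.11 over all genes. Of 14 classical activation genes, 12 were tested in that comparison and 6 were lower in Granulo_1, the largest difference being that of the chemokine gene Cxcl9 (-3.39 ± 0.53), with a list median of -1.51. Cxcl9 too was near the floor in Granulo_1, with a median of 0.557 CPM. Of the called genes of these lists, 5 of 6 and 6 of 6 were lower in Granulo_1, as were 693 of the 1038 genes called in all, while none of 11 classical genes was called in SAMC. Granulo_2 carried Retnlg, the granulocyte relative of Retnla, at 6128 to 24294 CPM, where Granulo_1 had at most 97.7 CPM (11.3 ± 0.66, adjusted p = 7.98e-08). It had less of the chemokine gene Ccl24 (-5.01 ± 0.81), of F13a1, a coagulation factor chain (-4.90 ± 0.55), and of Irf5, a transcription factor of classical activation (-3.51 ± 0.32), than Granulo_1. Ccl24 was near the floor in Granulo_2, with a median of 0 and at most 2.90 CPM, and thus passed the filter on low counts through Granulo_1. Irf5 had a median of 8.15 CPM in Granulo_2. None of these lists had a called gene in the comparisons by time or between pia and dura.

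The genes whose levels ran most like a member's were ranked by Spearman correlation over 112 sums of at least 30 cells, which share 8 libraries and their depth. They are a description only. For Chil3 these were Hp (0.79), Prtn3 (0.75), Gsr (0.74), Cd177 (0.73) and Msrb1 (0.72), and for Arg2 they were Clec4e (0.74), AB124611 (0.73), Clec4d, Pilrb2 and Cyp4f18 (each 0.72). For Clec10a they were Cfp and Ifitm2 (each 0.77), Cd209a (0.76), Clec4n (0.74) and Wfdc17 (0.72). No gene came as near to Arg1, for which Furin, Gla, Atp2a2, Ssr4 and Fn1 led with 0.53 to 0.55. Among member pairs that include Arg1, Arg2, Chil3 or Clec10a, the only ones computed, Mgl2 and Clec10a were closest (0.79), followed by Chil3 and Arg2 (0.59). Arg1 reached 0.41 with Chil3, 0.24 with Arg2 and 0.00 with Retnla.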

How the data were processed

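Sorted leukocytes of 8 tissue libraries were profiled with droplet-based single-cell RNA-seq. The authors deposited UMI counts per gene and cell barcode, made with Cell Ranger 6.0 as named in the submitters' processing notes, and these counts are not normalized. A second deposited table gives the cluster of each cell that passed the authors' filters on genes, mitochondrial share and doublets, and its map coordinates, which are scores computed by the authors, were not used. The genome build behind the counts is not given in the sources used here, and GRCm38 with GENCODE M21 served for positions.

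Genes were matched by identifier. UMIs were summed per library and cluster, and sums of at least 30 cells were used. Each library, with 6591898 to 20754181 UMIs, was 1 replicate, and since nothing links a library to single mice, p-values measure the spread between libraries. Only brain at 24 h has more than 1 library. Except for SAMC by time, this spread therefore includes differences of the effect between tissues and times. The main test was edgeR's robust quasi-likelihood fit (version 4.0.16 in R 4.3.3, after filterByExpr and TMM scaling), with library as a block where 2 clusters of the same libraries were compared, and with tissue and time as terms in the comparisons of macrophage clusters. A gene was called at a fold of at least 2 and a p below 0.05 after Benjamini-Hochberg adjustment over all genes tested, and tests were two-sided. This test reports no SE, so the value after ± is the absolute log2 fold change divided by the square root of the F statistic. DESeq2 1.42.0 was the alternative tool. Levels of single sums have exact Poisson intervals and shares of cells exact Clopper-Pearson intervals (95%), both for counting error only, and 3 counts are the upper limit where none was found. Shares were computed after thinning each cell at random to 1000 UMIs (seed 20220217), leaving out shallower cells. No doublet caller was run. Genes named beside the members are, per comparison, at most the 5 called genes of the pathway lists with the largest fold change, and for Arg1, Arg2, Chil3 and Clec10a the 5 genes most like a member by Spearman correlation among genes with a mean of at least 20 CPM. Gatm, Myc, Tgm2, Srm, Socs1, Stat6, Il4 and Il13, Ass1 in Granulo_1 against macrophage clusters and Klf4 in Granulo_2 fall outside this rule and were named after their values were seen. Sums, shares and intervals came from Python 3.11.15 with pandas 2.3.3, scipy 1.17.1 and numpy 2.4.6. The tests were run on simulated data first. The members, lists and comparisons were chosen with earlier results of these data known. Other alternatives were scaling by library size, no filter on low counts, no block, other cell minimums, each library left out, and 1 kit version only.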

Additional observations from a re-analysis of the deposited data

Results flagged for a closer look

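In macrophage clusters, Retnla was higher at 24 h than in control by 2.40 on the log2(CPM + 1) scale in pia and lower in dura (-2.07), each from 1 library against 1, so the difference between tissues was not tested. Of the Retnla UMIs in Macro_2 of pia at 24 h, 81 of 85 were in 1 cell.

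Barcodes that the annotation leaves without a cluster, which no comparison used, held several members above the level of the control library of the same tissue. Arg1 was at 105 CPM in brain 24 h replicate 2 and 192 CPM in brain at 72 h, against 3.25 CPM in control brain (at most 9.49 by the Poisson interval), and at 87.2 CPM in pia at 24 h against 0 in control pia. Arg2 was at 15.4 CPM in brain at 72 h against 0 in control brain. Chil3 was at 588 CPM in pia at 24 h against 51.2 in control pia, and at 1210 CPM in dura at 24 h against 154 in control dura. Retnla was at 27.6 CPM in pia at 24 h against 1.31 in control pia, and Ear2 at 18.6 and 15.0 CPM in brain 24 h replicate 2 and brain 72 h against 1.08 in control brain. Which cells these barcodes hold is not given, and their part in the levels of the clusters was not tested.

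No sample stood apart from its group among the 31 groups of 4 to 10 values that were examined, where chance alone would mark about 1 group in 20.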

How the results depend on the processing

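Comparing SAMC with the macrophage clusters, 3 members and 224 genes were called. The members called were 5 with a minimum of 10 cells and 0 without the library block or without the 2 libraries of the other barcode set, and the genes were 124 with DESeq2, 346 without a filter on low counts, 353 with 10 cells, 0 without the block, 134 with libraries labelled kit version 2 only and 1 without the other barcode set. The kit labels put brain 72 h and dura 24 h apart and so disagree with the barcode sets. With 1 library left out, 3 to 4 members and 134 to 356 genes were called. Granulo_1 against macrophage clusters gave 320 instead of 1038 genes without the block, and 5 to 7 members and 710 to 1186 genes with 1 library left out. Granulo_2 against Granulo_1 gave 1 member and 992 genes (of 2112) without the block and 1372 genes without the other barcode set, and 2 to 4 members and 1584 to 2335 genes with 1 library left out.

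For macrophage clusters at 24 h, where 0 were called, 2 members and 18 genes were called by DESeq2, 2 and 70 without the filter, 2 and 136 without the other barcode set, and 0 to 2 members and 0 to 239 genes with 1 library left out. At 72 h against 24 h, 1 member and 94 genes were called by DESeq2, 4 and 300 without the filter, and 0 to 4 members and 0 to 4188 genes with 1 library left out. SAMC at 72 h gave 1 member and 2 genes with scaling by library size and 2 and 33 with DESeq2. Pia against dura gave 7 genes with DESeq2, 2 members and 56 genes without the filter, 79 genes without the other barcode set, and 0 members and 0 to 109 genes with 1 library left out. The cause of these changes was not tested. Where brain 24 h replicate 2 was left out, brain 72 h was the only library of its barcode set, so 72 h could not be told apart from that set. Of the member fold changes, 34 were of at least 2-fold, and of their 409 alternatives 354 kept direction and side of the threshold, 21 lost the call, 30 gained it and 4 turned the sign. These 4 were Arg1 between pia and dura without pia at 24 h (-3.16) and without dura at 24 h, Arg2 there without control dura, and Mgl2 at 72 h against 24 h without brain 24 h replicate 2. With 1 library left out, Arg1 ranged from -4.39 to 5.11, Arg2 from -2.43 to 0.027 and Mgl2 from -2.39 to 0.28. Thinned CPM lay within the counting interval of the main value for 552 and outside for 141 of the values compared.

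Leaving out a library could not be fitted for SAMC at 72 h against 24 h, nor brain 72 h for the 72 h comparison of macrophage clusters, as no spread or no sample remains. No paired analysis was possible because the groups do not share replicate numbers: only brain at 24 h has more than 1 library, although within a library clusters were paired by the block. The alternative without the other barcode set, and the counts over all genes, were added after the data had been seen. Time, tissue and control conditions rest on 1 library each except brain at 24 h, and levels under the limit of 3 counts per sum were not detectable.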
